A study of Homo sapiens with 8 samples.

Results

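The cytosolic iron-sulfur assembly genes are the 10 rows of the count table named CIAO1, CIAO2A, CIAO2B, CIAO3, MMS19, NUBP1, NUBP2, CIAPIN1, NDOR1 and GLRX3, chosen by symbol from the 15852 genes listed. All 10 were found and all 10 passed the filter on low counts, which left 11841 genes. They were measured by RNA sequencing of polyadenylated RNA from KYSE150, an established line of esophageal squamous cell carcinoma, in 4 control libraries and 4 libraries in which the BOLA3-L isoform was knocked down. The labels give the genotypes as Control and ShBOLA3-L, with no other treatment in either group. They name no further allele, hairpin sequence, clone or age, and nothing in them ties the 4 libraries of a group to separate cultures, so the p-values measure only the spread between these libraries, which may be technical.

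Iron-sulfur clusters are cofactors of iron and sulfide that carry electrons, hold enzyme active sites or stabilize protein folds. Mitochondria make the first clusters and export a sulfur-containing intermediate, and a separate cytosolic machinery then builds clusters for proteins of the cytosol and nucleus. In that machinery a scaffold of NUBP1 and NUBP2 assembles the cluster with electrons passed from NDOR1 to CIAPIN1, CIAO3 carries it onward, and a targeting complex of CIAO1 and CIAO2B with MMS19 inserts it into client proteins such as DNA polymerases and helicases. CIAO2A, a paralog of CIAO2B, also pairs with CIAO1 and serves the iron regulatory protein IRP1. GLRX3 is a glutaredoxin that chaperones clusters together with BOLA2, a cytosolic relative of the mitochondrial protein BOLA3.

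After knockdown CIAO2A and CIAO2B, the alternative subunits of the targeting complex, rose, and MMS19, its scaffold for nuclear clients, fell. CIAO2A rose 1.197-fold, from 41.1 ± 0.572 to 49.2 ± 2.92 CPM (normalized read count scaled to library size; SD, n = 4 each), and MMS19 fell to 0.887 of control, from 124 ± 2.29 to 109.7 ± 1.02 CPM (SD, n = 4 each). CIAO2B rose 1.08-fold, from 110.1 ± 2.80 to 119 ± 2.84 CPM (SD, n = 4 each), a call that was lost under 10 of 19 alternatives, whereas those of CIAO2A and MMS19 were kept under all 19. The other 7 genes did not pass the test. Called means an edgeR p-value, adjusted over all tested genes, under 0.05. Of the 10 genes 2 rose, where 15.0% of all tested genes rose, 1 fell, where 15.6% fell, and 3 changed in either direction, where 30.7% did. The share called among the 10 is therefore close to that over all genes. The groups did not overlap in 3 of the 10, the same 3, and did not overlap in 30.2% of all tested genes. The median log2 change of the 10 was 0.05, against 0.0014 over all tested genes, and the median absolute change was 0.09 against 0.11.

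The libraries held 31178036 to 35147860 counts. Knockdown replicate 1 stood apart: its counts differed from those of the other knockdown libraries by a chi-square of 15.6 to 18.1 per degree of freedom, against 2.93 to 4.32 for every other pair within a group. Its deviation from the other knockdown libraries followed the GC content of the transcript, the share of G and C bases (Pearson r = -0.58 across 11798 genes, which are not independent replicates). Of 6 squamous or epithelial markers all 6 were present, with a summed level of 4220 to 4232 CPM in controls and 2696 to 2967 CPM after knockdown. KRT5 carried most of that sum (means of 3132 CPM in controls and 1936 CPM after knockdown). KRT14 (86.2 and 39.0 CPM), TP63 (309 and 220 CPM) and KRT6A (9.51 and 3.25 CPM) were lower after knockdown as well. EPCAM was higher after knockdown (132 and 153 CPM) and CDH1 stood at 555 and 521 CPM. Of 5 fibroblast markers COL1A1 alone exceeded 1 CPM (3.17 to 13.7 CPM). Their summed level was 9.66 to 14.5 CPM in controls and 3.87 to 6.83 CPM after knockdown. Of 4 leukocyte markers only CD68, which is not restricted to leukocytes, exceeded 1 CPM (summed level 77.6 to 84.5 and 73.9 to 79.4 CPM), and of 3 endothelial markers only CDH5 did (summed level 0.819 to 1.64 and 1.71 to 2.29 CPM). The part of these markers in the results was not tested. In bulk RNA fewer cells of a type and less RNA per cell cannot be told apart.

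BOLA3, the targeted gene, had normalized levels of 21.6, 19.1, 20.5 and 21.8 CPM in the controls (replicates 1 to 4, the order kept for every gene). In the knockdown libraries it had 6.06, 6.64, 6.33 and 7.29 CPM. Every knockdown library lay below every control, with a mean of 31.7% of control (log2 change -1.66, SE 0.0821, edgeR adjusted p 6.9e-11). The table counts the gene as a whole, so the L isoform was not measured apart.

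The plot of levels by library shows all 10 genes.

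**Figure D1:**
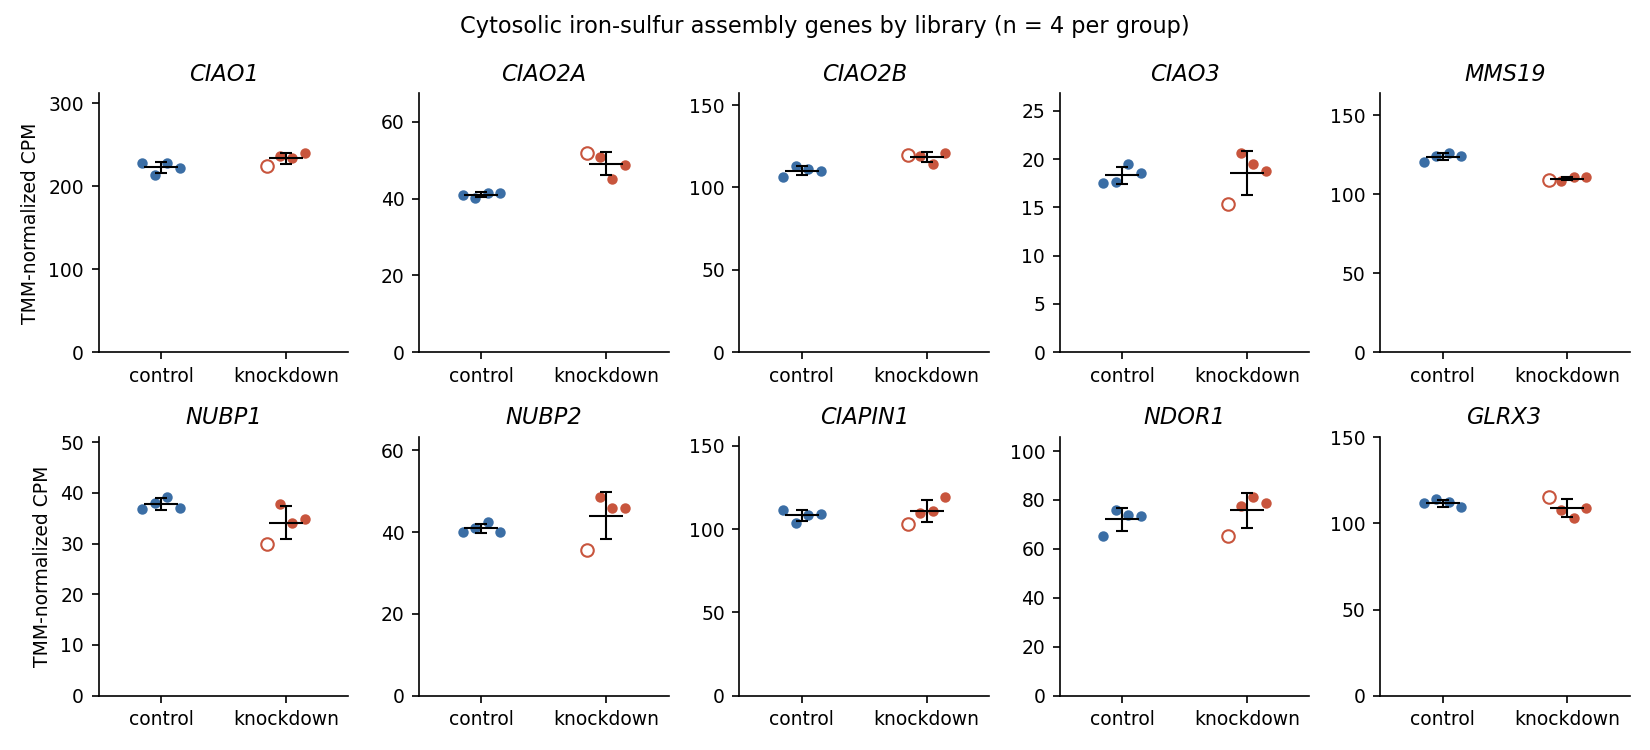
Normalized CPM of the 10 cytosolic assembly genes in the 4 control (blue) and 4 knockdown (red) libraries, with knockdown replicate 1 as an open circle and the mean ± SD in black; each vertical axis starts at 0. The groups separate in CIAO2A, CIAO2B and MMS19, and the open circle is the lowest knockdown library in 6 of the other 7 genes (CIAO1, CIAO3, NUBP1, NUBP2, CIAPIN1 and NDOR1).

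The targeting complex hands finished clusters to client proteins. CIAO2A (identifier 84191, chromosome 15, 64072565 to 64093838, minus strand, GRCh38) stood at 41.0, 40.3, 41.4 and 41.6 CPM in controls and at 51.9, 50.8, 45.2 and 48.8 CPM after knockdown. The controls lay within 1.31 CPM of each other, and the lowest knockdown library, replicate 3, was still above the highest control. In log2 terms it rose by 0.26 (SE 0.0520, edgeR adjusted p 0.00096; higher in 4 of 4 knockdown libraries than in any control). The call was kept under all 19 alternatives (adjusted p 2.6e-06 to 0.00577). No sequence of CIAO2A was shared with another gene in the windows searched.

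CIAO2B (identifier 51647, chromosome 16, 66932065 to 66934402, minus strand), the subunit that joins MMS19, stood at 106, 113, 111 and 110.0 CPM in controls and at 119.9, 119, 114 and 121 CPM after knockdown. All 4 knockdown libraries exceeded all 4 controls, by a margin of 1.52 CPM between the nearest libraries. Its log2 rise of 0.11 just passed (SE 0.0388, edgeR adjusted p 0.0444, range over the alternatives 0.0106 to 0.343). The call was lost with GC-corrected offsets (adjusted p 0.112), when low counts were not filtered (0.0607) and with replicate number as a block (0.0727). It was also lost without any single control library (adjusted p 0.139, 0.0525, 0.0848 and 0.0898 without replicates 1 to 4). The same held without knockdown replicate 2 (0.0922) or 4 (0.107). With GC-corrected offsets and without knockdown replicate 1 the log2 change was 0.04.

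MMS19 (identifier 64210, chromosome 10, 97458324 to 97498794, minus strand), a large repeat protein that docks DNA repair and replication enzymes, stood at 120.5, 124, 126 and 124 CPM in controls and at 109, 109, 111 and 111 CPM after knockdown. The knockdown libraries spanned 2.02 CPM and all lay below the lowest control. MMS19 fell by 0.17 on the log2 scale (SE 0.0369, edgeR adjusted p 0.0016; lower in 4 of 4 knockdown libraries). Its call was kept under all 19 alternatives (adjusted p 4.3e-07 to 0.00981).

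CIAO1 (identifier 9391, chromosome 2, 96266225 to 96274173, plus strand), the beta-propeller core to which both CIAO2 proteins bind, stood at 227, 213, 228 and 222 CPM in controls and at 224, 236, 234 and 239.8 CPM after knockdown. Knockdown replicate 1 lay within the control range and the other 3 above it. The log2 change of 0.07 did not pass (95% interval -0.01 to 0.15, edgeR adjusted p 0.164, range over the alternatives 0.00565 to 0.380). Without knockdown replicate 1 it was 0.09 and passed (adjusted p 0.00838), so 1 library decides that call.

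The sequences just before the start of the 4 targeting complex genes are shown because the 3 called members are among them. Each is the 250 bases before the RefSeq gene start on GRCh38.p14, read 5′ to 3′ on the strand of the gene: chr2:96265975-96266224 (plus) for CIAO1, chr15:64093839-64094088 (minus) for CIAO2A, chr16:66934403-66934652 (minus) for CIAO2B and chr10:97498795-97499044 (minus) for MMS19. Capitals mark, on either strand, the ETS family core CCGGAA, the SP family box GGGCGG and the run ACTACAANT, which was chosen after these sequences were seen.
CIAO1: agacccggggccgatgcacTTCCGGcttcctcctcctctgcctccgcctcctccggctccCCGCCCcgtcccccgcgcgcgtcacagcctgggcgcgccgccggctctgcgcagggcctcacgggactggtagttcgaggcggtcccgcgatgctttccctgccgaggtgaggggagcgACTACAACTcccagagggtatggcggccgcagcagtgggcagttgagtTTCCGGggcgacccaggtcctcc
CIAO2A: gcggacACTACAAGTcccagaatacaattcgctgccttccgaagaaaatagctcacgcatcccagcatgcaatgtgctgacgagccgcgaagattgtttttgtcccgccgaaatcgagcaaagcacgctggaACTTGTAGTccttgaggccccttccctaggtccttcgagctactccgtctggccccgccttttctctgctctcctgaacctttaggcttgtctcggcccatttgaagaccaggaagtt
CIAO2B: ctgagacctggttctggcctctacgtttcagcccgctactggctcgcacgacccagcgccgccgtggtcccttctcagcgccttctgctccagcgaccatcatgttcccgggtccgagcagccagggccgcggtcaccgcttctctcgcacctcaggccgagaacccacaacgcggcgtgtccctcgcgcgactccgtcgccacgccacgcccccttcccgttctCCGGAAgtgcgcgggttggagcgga
MMS19: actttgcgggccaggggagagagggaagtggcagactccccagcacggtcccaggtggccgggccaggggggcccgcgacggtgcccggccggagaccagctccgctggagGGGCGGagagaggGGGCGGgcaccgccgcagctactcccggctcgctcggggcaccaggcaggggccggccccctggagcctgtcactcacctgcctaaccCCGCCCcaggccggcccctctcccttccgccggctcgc

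The 4 windows differ in composition and in the motifs they hold. GC content was 53.6% before CIAO2A, against 72% before CIAO1, 68.8% before CIAO2B and 76.8% before MMS19. CIAO2A held 2 copies of ACTACAANT and CIAO1 held 1. That run was found before 2.68% of the 9762 tested genes with a sequence. It was found in 1.32% of all 35116 promoter sequences searched, which were not limited to 1 per gene. MMS19 held 3 copies of GGGCGG and CIAO1 1, where 68.2% of tested genes hold at least 1, and neither CIAO2A nor CIAO2B held any. CCGGAA stood once before CIAO2B and 2 times before CIAO1, where 26.2% of tested genes hold it. Of the 8 members with a sequence (all but NUBP2 and GLRX3) 5 held CCGGAA, namely CIAO1, CIAO2B, CIAO3, NUBP1 and NDOR1. The antioxidant response core TGACNNNGC, the CCAAT box, the E-box CACGTG and the TATAAA box, present before 12.1%, 35.4%, 8.99% and 5.22% of tested genes, occurred in none of the 8 windows. The NRF1 run GCATGCGC, present before 4.98%, occurred before CIAO3 alone. A match in letters is not a binding site, and a window without one says nothing of the factor.

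The scaffold step comes first in the pathway, and its subunits differed in level. NUBP1 (identifier 4682, chromosome 16, 10743842 to 10769351), an ATPase that binds the nascent cluster, stood at 36.8, 38.1, 39.2 and 37.0 CPM in controls and at 29.9, 37.8, 34.0 and 34.9 CPM after knockdown. Of the knockdown libraries, 3 lay below every control and replicate 2 lay among them. The log2 change was -0.15 (95% interval -0.28 to -0.01) and did not pass (edgeR adjusted p 0.0919). It was -0.09 without knockdown replicate 1, and it passed without knockdown replicate 2 (-0.20, adjusted p 0.0328) and with GC-corrected offsets (-0.15, adjusted p 0.0216). Exons of TVP23A on the other strand cover 36.1% of the exon bases of NUBP1, and strand in the counting is not given in the sources used here. TVP23A itself was counted 0 to 2 times per library.

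NUBP2 (identifier 10101, chromosome 16, 1782960 to 1789186), the partner ATPase, stood at 40.1, 41.1, 42.5 and 40.1 CPM in controls and at 35.6, 48.7, 45.9 and 46.0 CPM after knockdown. Knockdown replicate 1 lay below all controls and the other 3 above all of them. The log2 change of 0.11 did not pass with all 8 libraries (95% interval -0.05 to 0.26, edgeR adjusted p 0.299). Without knockdown replicate 1 it was 0.19 (adjusted p 0.00055), and 0.14 with GC-corrected offsets as well (adjusted p 0.0107).

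NDOR1 and CIAPIN1 form the electron chain of the pathway. NDOR1 (identifier 27158, chromosome 9, 137205700 to 137219361), a flavoprotein reductase, stood at 65.3, 75.8, 73.7 and 73.5 CPM in controls and at 65.3, 77.7, 81.4 and 78.8 CPM after knockdown. The low libraries were control replicate 1 and knockdown replicate 1. The log2 change was 0.07 (95% interval -0.06 to 0.20, edgeR adjusted p 0.406), and 0.14 without knockdown replicate 1, where it passed (adjusted p 0.0051), but 0.06 with GC-corrected offsets there (adjusted p 0.206). CIAPIN1 (identifier 57019, chromosome 16, 57428187 to 57447385), which carries the electrons, stood at 111, 104, 109 and 109 CPM in controls and at 103, 109.9, 111 and 119.5 CPM after knockdown, with overlapping groups. Its log2 change of 0.04 did not pass (95% interval -0.06 to 0.13, edgeR adjusted p 0.597). Exons of COQ9 on the other strand cover 2.96% of its exon bases.

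CIAO3 carries clusters from the scaffold onward, and GLRX3 chaperones clusters together with BOLA2. CIAO3 (identifier 64428, chromosome 16, 729765 to 740997), itself an iron-sulfur protein that resembles hydrogenases, was the lowest of the 10. It stood at 17.5, 17.7, 19.5 and 18.6 CPM in controls and at 15.3, 20.6, 19.5 and 18.8 CPM after knockdown. The knockdown range enclosed that of the controls, and the log2 change of 0.02 did not pass (95% interval -0.15 to 0.19, edgeR adjusted p 0.863). Exons of HAGHL on the other strand cover 21.5% of its exon bases, and HAGHL was counted at 12.2 ± 0.986 and 12.9 ± 1.70 CPM (SD, n = 4 each), so reads of this pair may not be separated. GLRX3 (identifier 10539, chromosome 10, 130136391 to 130180377) stood at 112, 114, 112 and 109 CPM in controls and at 115.5, 108, 103 and 109 CPM after knockdown, and the groups overlapped. Its log2 change was -0.04 (95% interval -0.13 to 0.05, edgeR adjusted p 0.513). For these 7 genes the intervals bound the change but do not show that the levels were equal.

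Much of the spread among the members lay in knockdown replicate 1. Relative to the mean of the other knockdown libraries it was lower by a log2 difference of -0.39 for NUBP2, -0.36 for CIAO3, -0.28 for NDOR1 and -0.25 for NUBP1. It was higher for GLRX3 (0.12) and CIAO2A (0.11). Transcript GC content was 60.7%, 63.7%, 64.6% and 52.9% in the first 4 and 44.2% and 41.0% in the last 2, where the 10 genes spanned 41.0% to 64.6%. CIAO2B, with 62.1% GC and a difference of 0.02, and MMS19, with 55.8% GC and a difference of -0.01, depart from this order. Without that library 5 of the 10 rose (CIAO1, CIAO2A, CIAO2B, NUBP2 and NDOR1), against 21.2% of the genes then tested, and MMS19 fell, against 21.5%. Together that is 6 of 10, against 42.7% of genes called in either direction. With GC-corrected offsets as well, CIAO1, CIAO2A and NUBP2 rose and MMS19 fell. That is 3 and 1 of the 10, where 2424 genes rose and 2589 fell of the 11853 then tested. The plot of log2 changes shows which genes move with that library.

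**Figure D2:**
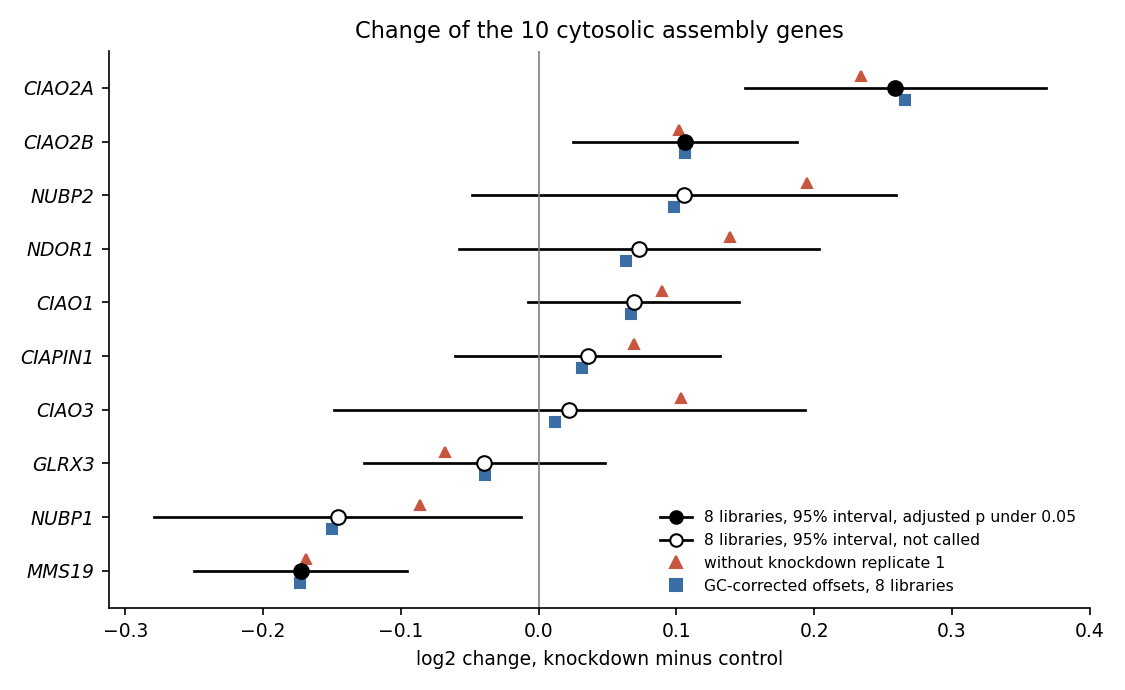
Log2 change of each cytosolic assembly gene, knockdown minus control, in the fit of all 8 libraries (circles with 95% intervals, filled where the adjusted p is under 0.05), without knockdown replicate 1 (triangles) and with GC-corrected offsets (squares). CIAO2A at 0.26 and MMS19 at -0.17 mark the ends, and NUBP2 moves from 0.11 to 0.19 without that library.

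Levels between genes were compared as FPKM, normalized read counts scaled to library size and gene length, which the authors computed with 1 length per gene. In controls CIAO2B was highest at 164 ± 4.35 FPKM, followed by CIAO1 at 54.8 ± 1.61, CIAPIN1 at 53.2 ± 1.56 and CIAO2A at 44.4 ± 0.585 FPKM. MMS19 at 29.01 ± 0.559 and GLRX3 at 28.3 ± 0.519 FPKM followed, then NUBP1 at 19.6 ± 0.588, NDOR1 at 14.7 ± 0.959, NUBP2 at 14.4 ± 0.402 and CIAO3 at 8.35 ± 0.414 FPKM (SD, n = 4 in each case). CIAO2B was thus 19.6 times CIAO3, at the lengths implied by the FPKM of 668 bases for CIAO2B and 2177 for CIAO3. Other transcript lengths would give another ratio. The libraries of neighbouring genes overlapped for CIAO1 and CIAPIN1, for MMS19 and GLRX3 and for NDOR1 and NUBP2, whose order is not resolved. After knockdown CIAO2A, at 53.9 ± 3.24 FPKM, also overlapped CIAPIN1 at 55.3 ± 3.19 FPKM. NUBP2, at 15.7 ± 2.01 FPKM, then overlapped NUBP1 at 18.0 ± 1.67 FPKM. MMS19 at 26.1 ± 0.261 FPKM lay below GLRX3 at 27.9 ± 1.39 FPKM in all knockdown libraries (SD, n = 4 each). The plot of FPKM levels gives the order.

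**Figure D3:**
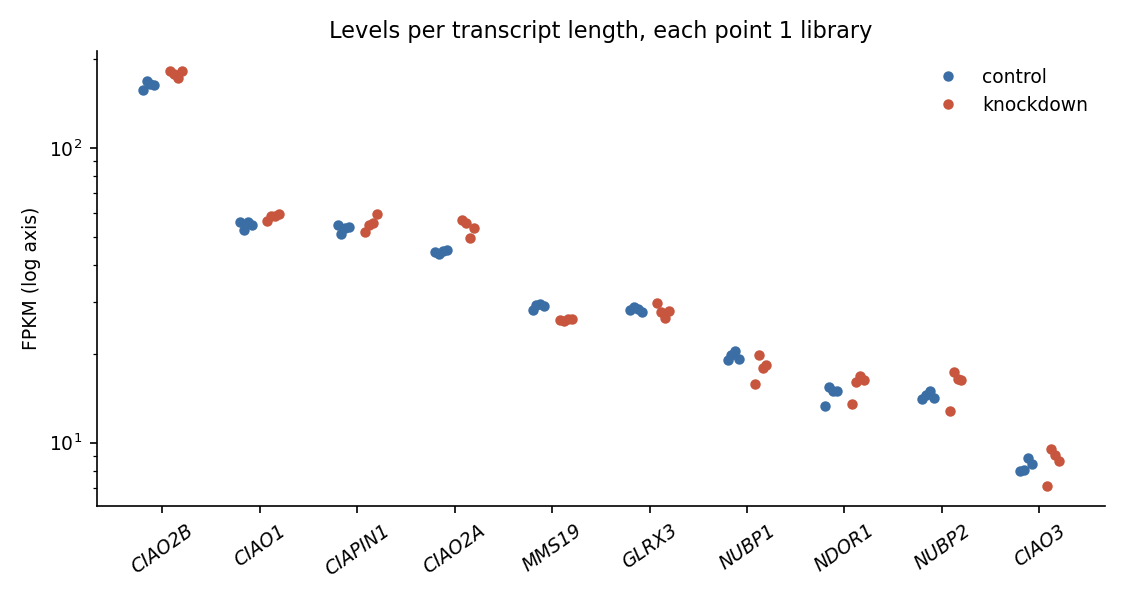
FPKM of the 10 genes on a log axis, sorted by the control mean, with each point 1 library (blue control, red knockdown). CIAO2B stands above all others and CIAO3 below them in both groups.

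Ratios within a library show how the proportions of partner genes differed, as a description without a test. CIAO2A over CIAO2B was 0.281, 0.259, 0.270 and 0.275 in controls and 0.314, 0.310, 0.287 and 0.294 after knockdown, in FPKM. The knockdown libraries were all higher, and their mean was 1.11 times that of controls. MMS19 over CIAO2B was 0.174 to 0.179 in controls and 0.144 to 0.153 after knockdown. This ratio could not overlap, since every knockdown library was lower in MMS19 and higher in CIAO2B than any control. It adds nothing to the results of the single genes. NUBP1 over NUBP2, the scaffold pair, was 1.36, 1.37, 1.36 and 1.36 in controls and 1.24, 1.15, 1.09 and 1.12 after knockdown. Every knockdown ratio was lower, including that of replicate 1, in which both genes were low. CIAO2B over CIAO1 (2.99 ± 0.155 and 3.06 ± 0.116) and NDOR1 over CIAPIN1 (0.276 ± 0.0248 and 0.283 ± 0.0188; SD, n = 4 each) overlapped between the groups.

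Clients of the pathway, proteins of the cytosol and nucleus that carry a cluster, were read from a list of 26 genes, all tested. Of these 5 fell, 1 rose and 20 did not pass, 6 of 26 against the 30.7% of all tested genes called, with a median log2 change of -0.05. ACO1, which encodes IRP1 and is the client served by CIAO2A, stood at 30.7, 31.2, 30.2 and 31.2 CPM in controls and at 23.9, 23.4, 23.5 and 24.5 CPM after knockdown. The groups were far apart, and ACO1 fell by 0.37 on the log2 scale (SE 0.0533, edgeR adjusted p 4.0e-05). PPAT, the first enzyme of purine synthesis, stood at 46.0, 44.8, 46.1 and 49.3 CPM in controls and at 37.4, 36.9, 33.0 and 33.7 CPM after knockdown. It fell by 0.40 (SE 0.0560, edgeR adjusted p 2.9e-05).

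The other falls among the clients were XDH, xanthine dehydrogenase, RTEL1, a telomere helicase, and DPYD, which breaks down pyrimidines. XDH fell by 0.48 on the log2 scale, from 12.6 ± 1.07 to 8.99 ± 1.40 CPM (edgeR adjusted p 0.00185; SD, n = 4 each). RTEL1 fell from 44.5 ± 3.98 to 35.2 ± 3.90 CPM (-0.33, adjusted p 0.00238), but 83.7% of its sequence windows also occur in its readthrough transcript with TNFRSF6B. DPYD fell from 21.7 ± 1.06 to 18.9 ± 1.40 CPM (-0.20, adjusted p 0.0316), a call lost without control replicate 1, 3 or 4 (adjusted p 0.0509, 0.116 and 0.0617), without knockdown replicate 2 or 4 (0.0929 and 0.103) and with limma on log2 FPKM (0.0908 to 0.116). DPH2, of diphthamide synthesis, rose from 113 ± 2.10 to 123 ± 3.99 CPM (0.12, adjusted p 0.0237). Its call was lost without control replicate 2 or 3 (0.0526 and 0.0884) or knockdown replicate 2 or 4 (0.0833 and 0.0656). ABCE1, the ribosome recycling ATPase, stood at 214 ± 3.72 and 212 ± 17.6 CPM (SD, n = 4 each; log2 change -0.02, 95% interval -0.12 to 0.08), and of its windows 18.2% are shared. It passed only without knockdown replicate 1, in which it was highest (-0.07, adjusted p 0.0354). Of the polymerase, primase and helicase genes among the clients RTEL1 passed and POLD1, POLE, REV3L, PRIM2, DNA2, ERCC2, BRIP1 and DDX11 did not, with log2 changes from -0.10 for DDX11 to 0.14 for DNA2. DDX11 (27.3% of its windows shared) had no overlap between the groups, missed the threshold (adjusted p 0.0556) and passed in DESeq2 (0.0346), with GC-corrected offsets (0.0138) and without knockdown replicate 1 (0.0234) or 3 (0.0430). DNA2 passed without knockdown replicate 4 (0.19, 0.0302) and with GC-corrected offsets (0.15, 0.0139), and BRIP1 with those offsets (0.10, 0.0445). With those offsets and without knockdown replicate 1, POLE (-0.09, 0.00638), ERCC2 (-0.09, 0.0478), DDX11 (-0.12) and DNA2 (0.14) passed.

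Of 7 partners of the pathway 6 were tested and 0 passed in edgeR, where 30.7% of all tested genes did. Without adjustment LTO1 alone had an edgeR p under 0.05, and DESeq2 called a different gene, BOLA2B, alone. IREB2, which encodes IRP2, stood at 126 ± 7.23 and 123 ± 3.74 CPM (SD, n = 4 each; log2 change -0.04, edgeR adjusted p 0.505). LTO1, an adaptor that brings ABCE1 to the targeting complex, stood at 20.1 ± 1.40 and 22.5 ± 1.78 CPM (SD, n = 4 each; log2 change 0.16, edgeR adjusted p 0.0954) and passed without knockdown replicate 1 (0.20, adjusted p 0.0126) and with GC-corrected offsets (adjusted p 0.0481). BOLA2, the partner of GLRX3, was counted 0 to 1 times per library, under the floor of 3 counts. Its identical copy BOLA2B was found at 2.003, 2.24, 2.03 and 2.07 CPM in controls and at 4.72, 19.4, 2.85 and 2.59 CPM after knockdown. All 4 knockdown libraries were higher, but replicate 2 stood far above the rest. BOLA2B did not pass (log2 change 1.83, edgeR adjusted p 0.137). It passed without that replicate (0.69, adjusted p 0.0209) and in DESeq2 (adjusted p 0.0301). Since 100% of its windows occur in BOLA2, counts cannot be assigned to either copy with certainty.

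Of 9 mitochondrial supply genes, which make the first clusters, 1 passed (a rise), where 15.0% of all tested genes rose and 30.7% were called. GLRX5, which moves clusters within mitochondria, rose by 0.11 on the log2 scale, from 96.7 ± 1.27 to 104 ± 1.42 CPM (edgeR adjusted p 0.0333; SD, n = 4 each). The call was lost without any single library other than knockdown replicate 1 (adjusted p 0.0510 to 0.0915). FDXR, which reduces ferredoxin, passed without knockdown replicate 1 alone (0.20, adjusted p 0.00942). The median log2 change of the 9 was 0.03. In the plot of the other pathway genes clients hold both ends, from XDH at -0.48 to AOX1 at 0.31, which did not pass, and 10 of the 26 lie above 0.

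**Figure D4:**
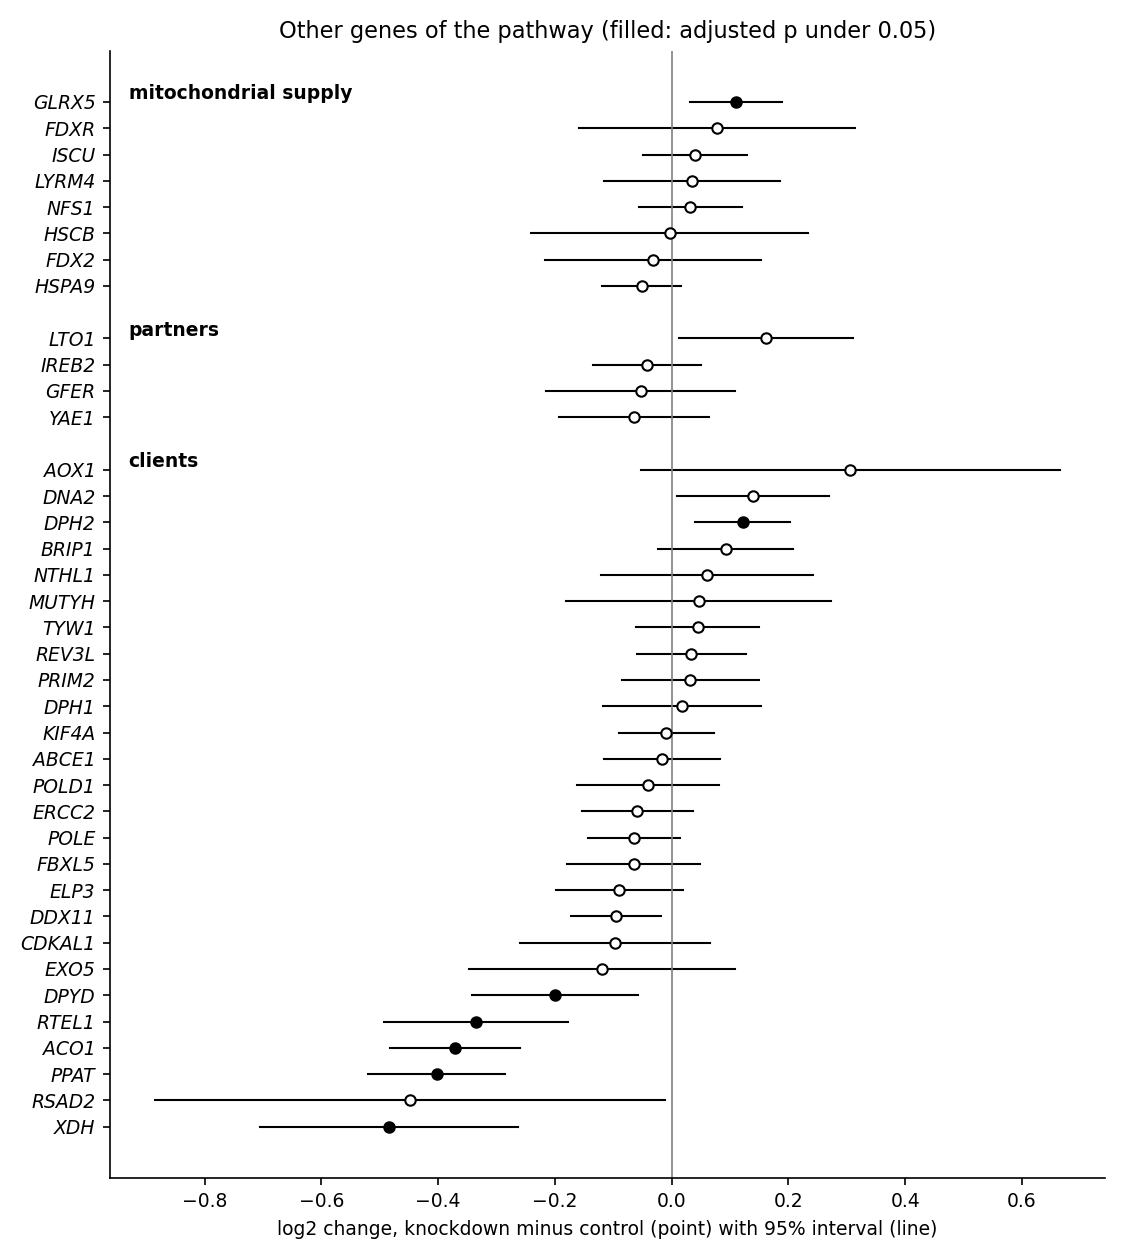
Log2 change, knockdown minus control, with 95% interval for all 26 clients and for most tested partners and mitochondrial supply genes, filled where the edgeR adjusted p is under 0.05; BOLA2B, at 1.83, is left out for scale. The falls of XDH (-0.48), PPAT (-0.40), ACO1 (-0.37) and RTEL1 (-0.33) lie beyond those of the assembly genes themselves, which span -0.17 to 0.26.

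The 10 genes share position and annotation to different degrees. On chromosome 16 lie 5 of them, CIAO2B, CIAO3, NUBP1, NUBP2 and CIAPIN1, where 4.85% of tested genes lie. That chromosome as a whole did not stand out, with 28.7% of its 574 tested genes called (98 rose, 67 fell) and a median log2 change of 0.02. By the ontology terms deposited with the counts, 9 of the 10 carry iron-sulfur cluster assembly (all but GLRX3, which carries iron-sulfur cluster binding), out of 20 genes with that term. The 5 genes listed under the CIA complex are CIAO1, CIAO2A, CIAO2B, CIAO3 and MMS19.

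Among 10141 other genes of at least 5 CPM, the profiles over the 8 libraries nearest to CIAO2A, by root mean square difference of centred log2 CPM, were those of PPP3CB (0.0217), KLHL5 (0.0287) and RNF145 (0.0293), where the median gene differed by 0.165. Nearest to MMS19 were TAP2 (0.0153), EBP (0.0184) and YWHAG (0.0234), with a median of 0.125. Nearest to CIAO2B were PPIF (0.0241), ATRAID (0.0245) and AZI2 (0.0251), with a median of 0.111. None of these 9 nearest genes is a cytosolic assembly gene; nearest profiles were sought for the 3 called members alone.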

How the data were processed

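RNA of 8 KYSE150 libraries was sequenced as 150 bp paired-end reads filtered with fastp, per the labels and the series' design text; the labels name hg38 as the genome build. Aligner, counter, annotation and strand setting were not given in the sources used here. Raw counts per gene were deposited by the authors. The deposited FPKM are those counts scaled by the authors to library total and 1 length per gene: 110558 of 110558 values above 0 equal that to within 1e-06.

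Counts were filtered with filterByExpr, TMM-normalized and tested in edgeR by the quasi-likelihood F-test in its robust form, with Benjamini-Hochberg adjustment over 11841 genes. The SE is the absolute log2 change over the square root of F. CPM are TMM-normalized. No set test was run.

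The members and lists were chosen with earlier results of these data known. The text names BOLA3, all members, every called gene of the other lists, ACO1, ABCE1, BOLA2 and IREB2, and the 3 nearest profiles of each called member; LTO1, BOLA2B, FDXR, the polymerases and helicases, and the ratios were chosen after their values were seen. Some genes of the lists enter the counts but are not reported here by name.

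Positions and promoters come from RefSeq on GRCh38.p14 (11826 tested genes matched), and GC content (longest transcript), exon overlaps and shared 75-base windows, taken every 25 bases on both strands, from GENCODE v29. Alternatives are given in the closing section. On simulated counts for 11841 genes with this design, edgeR recovered 70%, 92%, 94% and 98% of planted 1.25, 1.5, 2 and 3-fold changes. It also called 11 unchanged genes. Changes as small as those of the members were not simulated. Nor was a library that stands apart or follows GC content, as knockdown replicate 1 does, so recovery and false calls in these data may differ. The software was edgeR 4.0.16 with limma 3.58.1, and DESeq2 1.42.0, under R 4.3.3; tables and plots were made in Python 3.11.15 with pandas 2.3.3, matplotlib 3.10.9, scipy 1.17.1 and numpy 2.4.6.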

Additional observations from a re-analysis of the deposited data

Results flagged for a closer look

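BOLA2B, the copy of the gene for the GLRX3 partner that received counts, stood at 19.4 CPM in knockdown replicate 2, where the next knockdown library stood at 4.72 CPM. The gap is 0.873 of the range of the 4 libraries, above Dixon's critical value for 4 values. It was the only such case in the 44 groups of 4 libraries examined. Chance flags about 1 in 20, so 1 flag among 44 is not unusual. Those groups did not take in every listed gene. Outside them, PRIM2 and POLD1 also stood apart by this measure, in knockdown replicate 1. PRIM2 had 45.4 CPM there, against 39.2 to 39.7 CPM in the other knockdown libraries, and POLD1 had 76.0 against 92.0 to 93.6 CPM.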

How the results depend on the processing

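The 19 alternatives were RLE or upper quartile normalization, no filter, a minimum of 1 CPM in 4 libraries, DESeq2, limma on log2 FPKM (pseudocount 1 or 0.1 with a minimum of 0.5 FPKM in 4 libraries, or 1 with no minimum), a replicate block, leaving out each library, and, chosen after seeing the data, GC-corrected offsets with and without knockdown replicate 1. BOLA3, CIAO2A and MMS19 kept direction and call under all of them, with BOLA3 between -1.71 and -1.56. Of 190 values for single members 170 kept direction and side of the threshold. The direction turned for CIAO3 without knockdown replicate 2 (-0.0316) or 3 (-0.0026) and for CIAPIN1 without knockdown replicate 4 (-0.0022), none of them called; over all single libraries left out CIAO3 ran from -0.0316 to 0.1036 and CIAPIN1 from -0.0022 to 0.0695.

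Of the 10 members 1 rose, not 2, with GC-corrected offsets, no filter or the replicate block, and 1 to 5 rose when single libraries were left out; 2 fell, not 1, with GC-corrected offsets, and 1 to 2 without single libraries. Of the clients 3 rose with GC-corrected offsets, 2 rose and 8 fell with those offsets and without knockdown replicate 1, and 0 to 1 rose without single libraries. More genes were called over the whole table in those GC-corrected settings too. With the offsets 2358 rose and 2528 fell of 11798 genes, against 1777 and 1853 of 11841 in the main fit. Without knockdown replicate 1 as well, 2424 rose and 2589 fell of 11853. Of the partners 1 rose in DESeq2, with GC-corrected offsets, and with those offsets and without knockdown replicate 1, where 1 also fell; 0 to 1 rose without single libraries. Of the supply genes 0 rose with no filter or the replicate block, and 0 to 2 rose without single libraries. The cause was not tested. Whether the numbers pair the samples is not settled. Deviations of same-numbered libraries correlated at -0.0444 to 0.0876, and low correlations cannot exclude a pairing. With the replicate block 1656 genes rose and 1736 fell, against 1777 and 1853. Over the other alternatives 1409 to 2526 rose and 1339 to 2589 fell. CIAO3, the member with the fewest counts (484 to 727 per library), had the widest interval, -0.15 to 0.19.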
